A study of Rattus norvegicus with 60 samples.

Results

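The genes followed here are 10 core circadian clock genes, Arntl, Npas2, Cry1, Per1, Per2, Per3, Nr1d1, Nr1d2, Dbp and Tef, in the lungs of rats that had inhaled multi-walled carbon nanotubes (MWCNT), which are stiff carbon fibres of nested graphene tubes. They are the genes of the deposited count table that carry these 10 symbols, out of 30045 genes in all, and all 10 were among the 15995 genes with enough counts to be tested. Male Fischer 344 rats (F344/DuCrl) aged 3 months were exposed in a whole-body chamber for 6 hours a day on 3 days, and the lung was taken 1 day after the last exposure. The 5 exposed groups had cumulative doses of 11.25, 22.5, 45, 90 and 180 mg/m3, and each had a group of its own that breathed filtered air at the same time. An exposed group and its air group are called a run here and are named by the dose. No group carried a genetic change, and all rats were kept 3 per cage on a 12-hour light-dark cycle with free food and water. The labels give neither the hour at which a rat was killed nor its cage. Each group held 6 rats with 1 library per rat, and the labels mark 7 of the 60 libraries as outliers. Without those, 27 air and 26 exposed libraries were analysed, with 3 air rats in the 45 mg/m3 run, 4 exposed rats at 90 mg/m3, 5 exposed rats at 11.25 and at 180 mg/m3, and 6 rats in each other group.

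The circadian clock is a feedback loop of transcription that runs in nearly every cell. The activator BMAL1, the product of Arntl, pairs with CLOCK or its relative NPAS2 and switches on genes with E-boxes, among them the Per and Cry genes, whose proteins return to block the activator, and the REV-ERB genes Nr1d1 and Nr1d2, whose proteins repress Arntl. Dbp and Tef encode activators that carry the rhythm to output genes through D-boxes. In a rhythmic tissue Arntl and Npas2 therefore peak at about the opposite time of day from Nr1d1 and Dbp, and in the lung the clock of airway cells is known for its part in the timing of inflammation.

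Promoter sequences of the members are shown because the REV-ERB proteins, BMAL1 and the D-box factors act through short motifs, and the results below set genes of these different arms against each other. The RefSeq promoter table (GRCr8, 250 bases before to 50 bases after a start) held 9 of the 10 members, with Arntl listed as Bmal1 and with 2 promoters of Nr1d1. Cry1 was not matched. Capitals mark the motifs found, which were the E-box CACGTG, the variant E-prime box CACGTT, the D-box TTATGTAA, the cAMP response element TGACGTCA and the REV-ERB and ROR response element, each searched on both strands, and no motif found overlapped another.
Arntl, chr1:176766078-176766377, strand +: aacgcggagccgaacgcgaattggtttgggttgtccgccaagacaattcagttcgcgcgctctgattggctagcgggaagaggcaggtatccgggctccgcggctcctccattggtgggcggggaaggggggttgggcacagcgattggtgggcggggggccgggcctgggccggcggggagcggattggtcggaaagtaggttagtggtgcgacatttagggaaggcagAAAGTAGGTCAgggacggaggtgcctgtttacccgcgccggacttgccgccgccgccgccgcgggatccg
Per2, chr9:99496944-99497243, strand -: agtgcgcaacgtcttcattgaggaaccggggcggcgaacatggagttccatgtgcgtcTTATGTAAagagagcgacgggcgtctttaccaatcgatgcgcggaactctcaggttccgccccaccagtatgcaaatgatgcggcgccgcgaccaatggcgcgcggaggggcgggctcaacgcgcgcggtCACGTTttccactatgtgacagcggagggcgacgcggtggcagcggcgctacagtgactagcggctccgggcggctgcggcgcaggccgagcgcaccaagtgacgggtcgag
Nr1d1, upstream promoter, chr10:84231763-84232062, strand -: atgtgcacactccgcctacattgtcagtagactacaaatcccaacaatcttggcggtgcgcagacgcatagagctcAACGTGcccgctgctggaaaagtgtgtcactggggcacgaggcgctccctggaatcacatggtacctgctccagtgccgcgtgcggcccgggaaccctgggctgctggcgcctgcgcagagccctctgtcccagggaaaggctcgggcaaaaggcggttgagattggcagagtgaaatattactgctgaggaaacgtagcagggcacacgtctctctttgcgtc
Nr1d1, downstream promoter, chr10:84229405-84229704, strand -: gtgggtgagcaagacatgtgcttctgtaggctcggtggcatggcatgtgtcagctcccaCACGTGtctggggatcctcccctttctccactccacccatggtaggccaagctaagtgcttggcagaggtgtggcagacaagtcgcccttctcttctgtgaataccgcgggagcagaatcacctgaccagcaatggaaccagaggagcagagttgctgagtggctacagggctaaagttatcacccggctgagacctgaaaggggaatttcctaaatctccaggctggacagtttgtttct
Tef, chr7:115206577-115206876, strand +: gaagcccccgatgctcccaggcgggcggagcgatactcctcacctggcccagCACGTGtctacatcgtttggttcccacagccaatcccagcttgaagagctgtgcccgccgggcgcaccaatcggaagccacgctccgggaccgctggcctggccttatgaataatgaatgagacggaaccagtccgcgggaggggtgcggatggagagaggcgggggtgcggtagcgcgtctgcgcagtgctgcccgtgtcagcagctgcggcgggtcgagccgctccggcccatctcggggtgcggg
The Arntl window held a REV-ERB and ROR response element that begins at position -20 from the start, a motif present in 0.356% of all 33469 promoters in the table. Per2 held an E-prime box at -62 and a D-box at -192, which 4.83% and 0.893% of promoters hold. The upstream promoter of Nr1d1 held an E-prime box on the other strand at -174, and its downstream promoter an E-box at -191. Tef held an E-box at -198, and 6.42% of all promoters hold one. The cAMP response element, in 1.83% of promoters, was in none of the windows, and the windows of Npas2, Per1, Per3, Nr1d2 and Dbp held none of these letters. A match is a description of the letters in the window and not evidence of binding, and binding was not measured.

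The analysed libraries held 8099154 to 16176867 counts, with a median of 11221335. Levels below are counts per 1000000 of the library size after scaling by trimmed mean of M values (CPM). They are not corrected for transcript length, so the levels of different genes are not compared. Every one of the 53 carried the profile of lung, with 7851 to 15280 CPM of Sftpc, a surfactant gene of alveolar type 2 cells, and at most 148.7 of the liver gene Alb. Among the 7 libraries labelled outlier, 3 had 18.6% to 21.8% of their counts in 8 liver genes and 8.25 to 358 CPM of Sftpc, so they do not carry the lung profile of the other libraries.

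At 180 mg/m3, 7 of the 10 clock genes differed between exposed rats and the air rats of the same run. The activators Arntl and Npas2 and the repressor Cry1 were lower, and Per3, both REV-ERB genes and the output factor Dbp were higher. Per1, Per2 and Tef did not pass the test. These are 4 of 10 members called higher, where 12% of all genes tested were called higher, and 3 of 10 called lower, where 10.9% of all genes were. Called means an adjusted p under 0.05 in edgeR's quasi-likelihood test with Benjamini-Hochberg adjustment over all genes tested. The median absolute log2 fold change was 0.605 over the members and 0.14 over all genes tested. In a piece of lung, fewer cells of a type and less RNA per cell cannot be told apart. The plot of levels by run shows every rat.

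**Figure D1:**
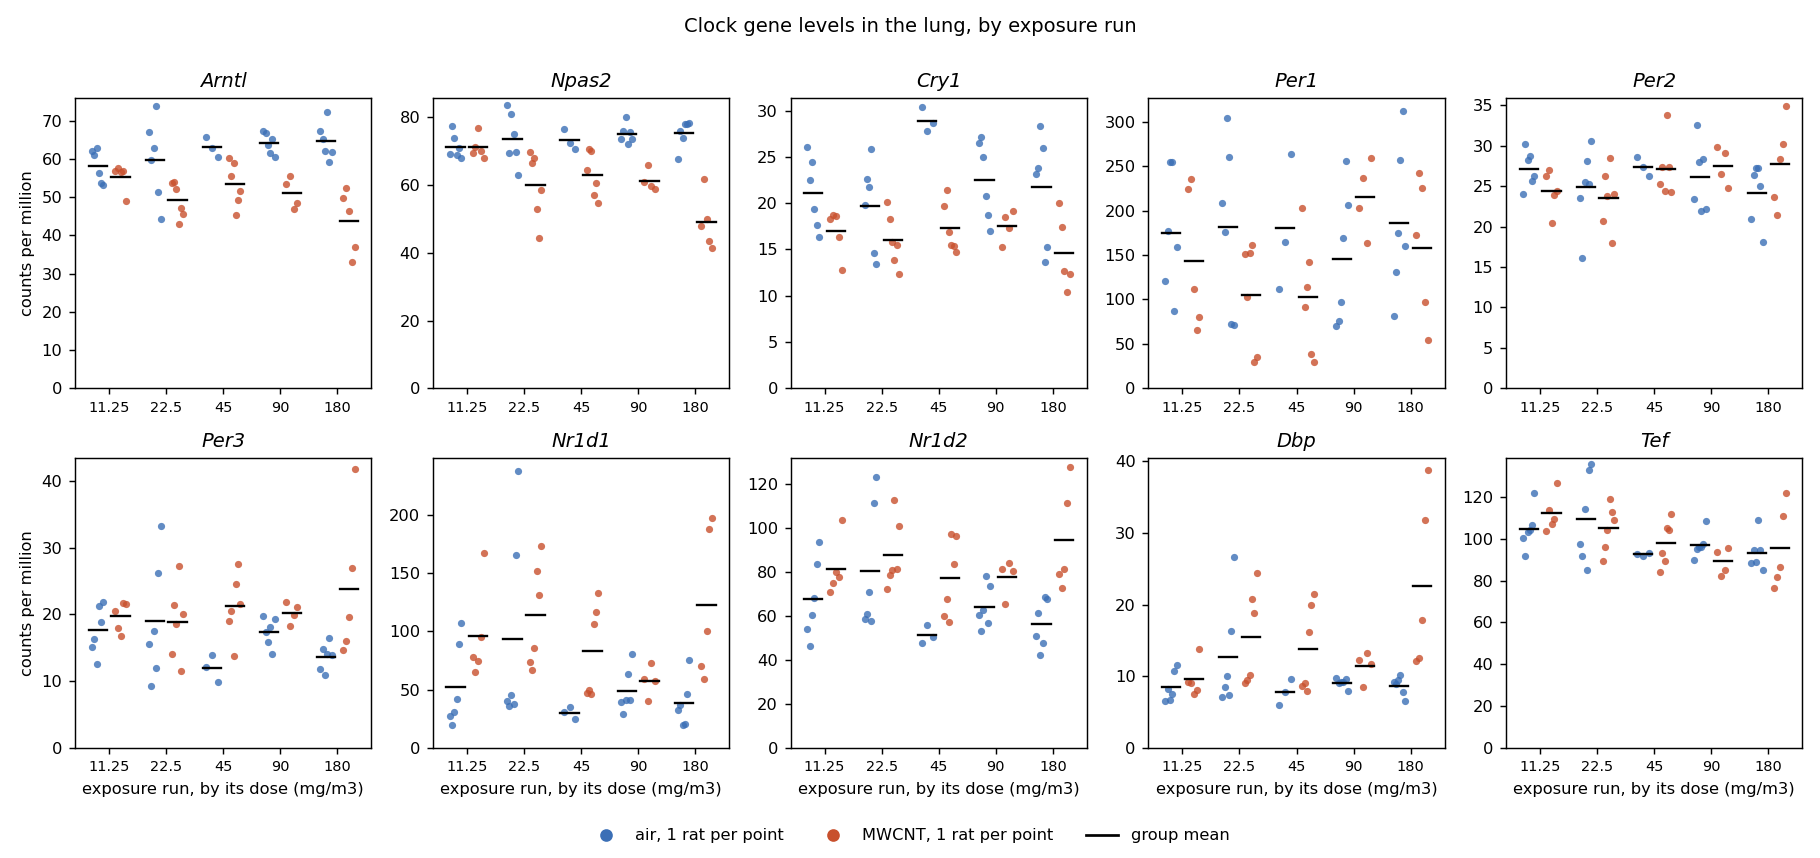
Level of each clock gene (CPM, vertical axis from 0) in every analysed rat, by exposure run (horizontal axis, named by dose in mg/m3), with air rats in blue, exposed rats in red and group means as black bars. At 180 mg/m3 the exposed rats lie below the air rats for Arntl and Npas2 and above them for Nr1d2 and Dbp.

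Arntl, the gene of the activator BMAL1, lay at 33.1, 36.9, 46.3, 49.7 and 52.3 CPM in the 5 exposed rats at 180 mg/m3. The 6 air rats of that run spanned 59.3 to 72.3 CPM with a median of 63.6. Every exposed rat was below every air rat, and the means were 43.6 ± 8.31 (SD, n = 5) and 64.7 ± 4.685 (SD, n = 6). The log2 fold change was -0.57 with a standard error of 0.10 and an adjusted p of 6.7e-06.

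Npas2, whose protein can take the place of CLOCK beside BMAL1, had 41.5, 43.4, 48.05, 50.1 and 61.8 CPM in the exposed rats, against 67.75 to 78.5 with a median of 76.9 in the air rats. The groups did not overlap. Npas2 fell by 0.62 on the log2 scale (standard error 0.08, adjusted p = 9.8e-08), the smallest adjusted p of the 10 genes in this run. Both activators were thus at about 0.67 and 0.65 of the air level.

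Cry1 encodes a cryptochrome, the part of the repressor complex that blocks BMAL1. It had 10.35, 12.3, 12.7, 17.4 and 20.01 CPM in the exposed rats and 13.6 to 28.3 with a median of 23.5 in the air rats. Here the groups overlapped, since 2 air rats at 13.6 and 15.3 lay below 2 exposed rats. Its log2 fold change was -0.59 (standard error 0.18, adjusted p = 0.011). Without exposed replicate 5 it was -0.49 with an adjusted p of 0.053, and with the 180 mg/m3 run fitted alone the adjusted p was 0.081.

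The Period genes, whose proteins partner the cryptochromes, did not move together. Per3 had 14.7, 15.96, 19.7, 26.99 and 41.9 CPM in the exposed rats against 10.9 to 16.4 with a median of 14.03 in the air rats. A single exposed rat stood far above the others, and the groups overlapped. Per3 rose by 0.81 on the log2 scale (standard error 0.23, adjusted p = 0.0082), and without that rat, exposed replicate 6, the value was 0.50 with an adjusted p of 0.12.

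Per1, the Period gene that also answers to glucocorticoid and stress signals, had the largest standard error of the 10 genes in this run, 0.48 on the log2 scale. It spanned 54.4 to 243 CPM in the exposed rats and 81.0 to 313 in the air rats, with a log2 fold change of -0.23 and a 95% interval from -1.20 to 0.74 (adjusted p = 0.80). Per2 had 21.5 to 35.0 CPM in exposed and 18.1 to 27.3 in air rats, with a log2 fold change of 0.20 (95% interval from -0.05 to 0.45, adjusted p = 0.28). Neither gene differed beyond the spread between rats. The interval of Per1 holds the falls of Arntl, Npas2 and Cry1 in this run, but the rises of Per3, Nr1d1, Nr1d2 and Dbp lie above it.

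Nr1d1 encodes REV-ERB alpha, the repressor of Arntl. It had 59.3, 70.5, 100.6, 188 and 197 CPM in the exposed rats, against 19.8 to 75.4 with a median of 34.5 in the air rats. The highest air rat lay above 2 exposed rats, and the other air rats lay below all 5. Nr1d1 had the largest log2 fold change of the 10 genes at this dose, 1.69 (standard error 0.47, adjusted p = 0.0066), with means of 123 ± 65.2 (SD, n = 5) and 38.5 ± 20.7 (SD, n = 6). It shares part of its locus with Thra on the opposite strand. The library kit was stranded, but the sources used here do not give the strand setting of the counting. Whether reads of the pair were kept apart is therefore not known.

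Nr1d2, the gene of REV-ERB beta, had 72.6, 78.9, 81.4, 111.4 and 127.5 CPM in the exposed rats and 41.96 to 68.6 with a median of 56.1 in the air rats. The groups did not overlap, and Nr1d2 rose by 0.75 on the log2 scale (standard error 0.19, adjusted p = 0.0027). Both REV-ERB genes were therefore higher while Arntl was lower.

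Dbp, the D-box activator, had 12.1, 12.6, 17.9, 31.8 and 38.9 CPM in the exposed rats against 6.47 to 10.1 with a median of 9.06 in the air rats. All exposed rats were above all air rats, and the log2 fold change was 1.39 (standard error 0.31, adjusted p = 0.00068). Its relative Tef had 76.6 to 122 CPM in the exposed and 84.9 to 109.2 in the air rats, with a log2 fold change of 0.03 (95% interval from -0.17 to 0.24, adjusted p = 0.87). Tef thus did not differ beyond the spread between rats in the run where Dbp did.

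The same 2 exposed rats at 180 mg/m3, replicates 5 and 6, held the 2 lowest levels of Arntl, Npas2, Cry1 and Per1 in their group and the 2 highest of Per2, Per3, Nr1d1, Nr1d2, Dbp and Tef. When either was left out, Arntl, Npas2, Nr1d1, Nr1d2 and Dbp kept their direction and an adjusted p under 0.05. The largest adjusted p of these genes without 1 of the 2 was 0.031, for Nr1d1 without replicate 6. Cry1 and Per3 lost their call as given above.

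Markers of several cell types moved in the same run. All 6 genes of dividing cells were called higher, with a summed level of 158.8 to 177.7 CPM in exposed and 51.8 to 65.8 in air rats. All 5 neutrophil genes were called higher, at 238 to 316 against 122.5 to 203.5 CPM in sum. Among endothelial genes 7 of 8 were called lower, at 2787 to 3045 against 3336 to 3824 CPM, and 3 of 4 club cell genes were called lower, at 3576 to 4443 against 5469 to 8257 CPM. Of the macrophage genes 3 of 4 tested were called higher, with sums of 458 to 500.2 CPM in exposed and 327 to 535 in air rats that overlapped. Of the ciliated cell genes 4 of 6 were called higher and 1 lower, at 529.5 to 663 against 661 to 957 CPM. Alveolar type 1 genes had 3 of 7 called lower, at 6552 to 6752 against 7648 to 8358 CPM, and alveolar type 2 genes 3 of 8 called higher, at 30000 to 32030 against 22900 to 29990 CPM. Immediate early genes, which respond within minutes to many stimuli, had 3 of 8 called higher, at 288 to 434 against 195 to 351 CPM.

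Markers also moved in the runs of lower dose in which activators or Cry1 were called. All 6 genes of dividing cells were called higher at 90 mg/m3 (116 to 137 against 54.2 to 65.6 CPM in sum), at 45 mg/m3 (103.7 to 120.2 against 53.4 to 65.3) and at 22.5 mg/m3 (93.1 to 110.9 against 41.7 to 56.4). Ciliated cell genes had 4, 4 and 5 of 6 called higher in these runs, with sums of 660 to 750.4 against 682 to 877 CPM, 658.5 to 824 against 750.3 to 768 and 709 to 1040 against 679 to 1152. Neutrophil genes had 4, 1 and 2 of 5 called higher, at 197 to 228 against 104 to 192 CPM, 169.5 to 205 against 131.5 to 144.7 and, at 22.5 mg/m3, 161.2 to 268 with a lowest exposed rat inside the range of the air rats. Endothelial genes had 3, 3 and 2 of 8 called lower. Their sums were 3071 to 3293 against 3476 to 3841 CPM at 90 mg/m3 and 2887 to 3259 against 3438 to 3633 at 45 mg/m3. Club cell genes had 2, 1 and 1 of 4 called lower, and 1 higher at 22.5 mg/m3. Club cell sums were 4039 to 5083 against 6011 to 7700 CPM at 90 mg/m3 and 4519 to 5778 against 6616 to 7210 at 45 mg/m3. At 22.5 mg/m3 both sums overlapped. Macrophage genes had 2, 0 and 3 of 4 tested called higher. The part of these shifts in the clock gene differences was not tested.

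At 90 mg/m3 the 2 activators were lower and no member was called higher. Arntl had 47.0, 48.5, 53.5 and 55.6 CPM in the 4 exposed rats and 60.5 to 67.3 with a median of 64.4 in the 6 air rats. Npas2 had 58.8, 59.8, 60.98 and 65.8 CPM in the exposed and 72.2 to 80.2 with a median of 74.6 in the air rats. Neither gene's groups overlapped. The log2 fold change was -0.33 for Arntl (standard error 0.10, adjusted p = 0.023) and -0.29 for Npas2 (standard error 0.09, adjusted p = 0.021). These are 2 of 10 members called lower, where 4.28% of all genes tested were, and 0 of 10 called higher, where 6.82% were. At an unadjusted p under 0.05, edgeR also gave 0 members higher, and DESeq2 and limma called 0 higher. Either activator lost its call without exposed replicate 3 or 4, with adjusted p from 0.065 to 0.098. With all 60 libraries, which adds 2 exposed libraries that hold liver RNA, the value of Arntl turned to 0.13 (adjusted p = 0.53). Nr1d1 did not pass here, at 39.9 to 73.2 CPM in exposed and 28.9 to 80.6 in air rats, with a log2 fold change of 0.23 and a 95% interval from -0.78 to 1.25.

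At 45 mg/m3 only 3 air rats remained, and Cry1 was the single member called. It had 27.8, 28.6 and 30.3 CPM in the air rats and 14.8 to 21.4 with a median of 16.2 in the 6 exposed rats. The groups did not overlap, and Cry1 fell by 0.75 on the log2 scale (standard error 0.19, adjusted p = 0.011). The call was lost without air replicate 1 (-0.71, adjusted p = 0.058) and without air replicate 4 (-0.75, 0.0503). With the 27 air rats pooled as the control the value itself was smaller, -0.36 (adjusted p = 0.059). This is 1 of 10 members called lower, where 2.09% of all genes were, and 0 of 10 higher, where 3.32% were. At an unadjusted p under 0.05, edgeR gave 4 members higher, and DESeq2 called 1 higher and limma 0.

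Several other members had values of similar size at 45 mg/m3 that did not pass. Nr1d1 had 24.5, 30.5 and 34.75 CPM in the air rats and 46.0, 47.0, 49.3, 106, 117 and 133 in the exposed rats, so the groups did not overlap, yet the log2 fold change of 1.48 had a standard error of 0.59 and an adjusted p of 0.15. Nr1d2 was at 0.59 (adjusted p = 0.13), Dbp at 0.85 (0.22) and Per3 at 0.82 (0.076), and Per3 passed in DESeq2 (adjusted p = 0.039). Arntl and Npas2 were at -0.24 and -0.22 (adjusted p = 0.21 and 0.19). With the number in the library title as a covariate, counted in steps from the lowest number of its group, Nr1d1 was at 0.91 and Dbp at 0.55 (adjusted p = 0.18 and 0.32). The 3 air rats were at steps 0, 1 and 3, and the 6 exposed rats at steps 0 to 5.

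At 22.5 mg/m3 the activators were again the members called, with overlapping groups. Arntl had 42.97 to 54.02 CPM with a median of 49.7 in the exposed rats and 44.35 to 73.9 with a median of 61.35 in the air rats, and its log2 fold change was -0.28 (standard error 0.09, adjusted p = 0.045). Npas2 had 44.5 to 69.9 CPM with a median of 62.5 in the exposed and 62.9 to 83.6 with a median of 72.5 in the air rats, at -0.29 (standard error 0.08, adjusted p = 0.013). These are 2 of 10 called lower, where 1.62% of all genes were, and 0 of 10 higher, where 5.18% were, and edgeR at an unadjusted p under 0.05, DESeq2 and limma gave 0 higher as well. The call of Arntl was lost in 6 of the fits that leave out 1 library, air replicates 1, 3 and 4 and exposed replicates 4, 5 and 6, with adjusted p from 0.082 to 0.18. Npas2 lost its call without exposed replicate 5 (adjusted p = 0.055), and both lost it with the run fitted alone (0.32 and 0.27).

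Air rats in the 22.5 mg/m3 run were themselves spread widely. Air replicates 5 and 6 had 166 and 238 CPM of Nr1d1, where the other 4 had 35.5 to 45.1, and they also had the lowest Arntl and Cry1 and the highest Dbp, Tef, Nr1d2 and Per3 of their group. The log2 fold change of Nr1d1 in that run was 0.26 with a 95% interval from -0.60 to 1.13 (adjusted p = 0.78). With the 27 air rats of all runs pooled as the control, Nr1d1 at this dose was at 1.03 (adjusted p = 0.029), Dbp at 0.69 (0.024) and Nr1d2 at 0.43 (0.033), all called higher, and Cry1 at -0.47 (0.012). That setting called 3491 of all 15995 genes in either direction. Against the air rats of the same run, 828 genes were called higher and 259 lower.

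At 11.25 mg/m3 no member was called in either direction, where 0.025% of all genes were called higher and 0% lower. At an unadjusted p under 0.05, edgeR gave 0 members and limma 2, and DESeq2 called 0. Arntl had 49.1, 56.5, 56.75, 56.98 and 57.6 CPM in the exposed rats and 53.3 to 62.9 in the air rats, with a log2 fold change of -0.07 and a 95% interval from -0.26 to 0.12. Nr1d1 was at 0.87 with an interval from -0.07 to 1.81, a width that would hold the change seen at 180 mg/m3. The plot of fold changes sets the 5 runs side by side.

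**Figure D2:**
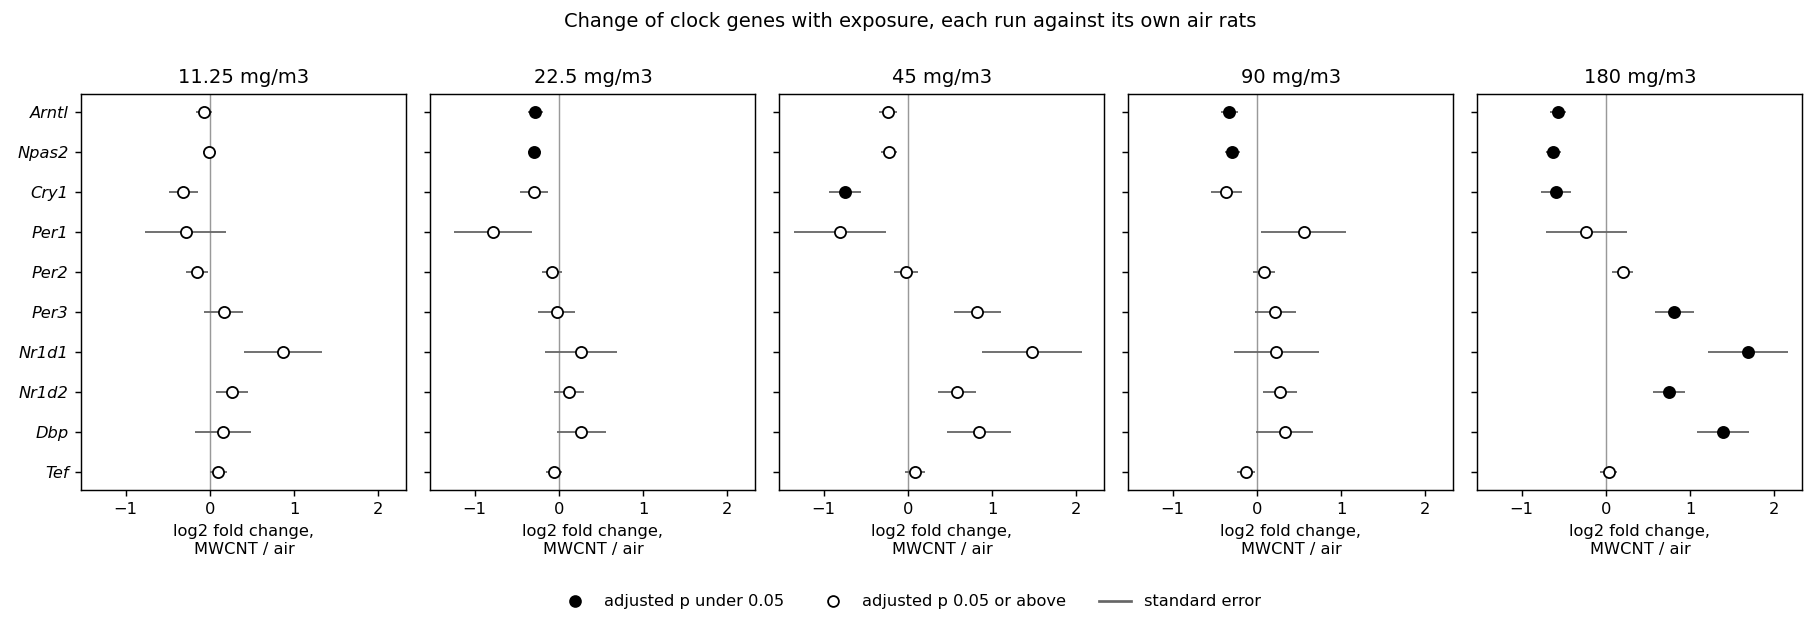
Log2 fold change of exposed over air rats (horizontal axis) for each clock gene in each run, with bars of 1 standard error from the edgeR fit and filled points for an adjusted p under 0.05. Filled points number 0 at 11.25, 2 at 22.5, 1 at 45, 2 at 90 and 7 at 180 mg/m3.

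Whether the exposure effect differed between runs was tested directly. It differed for Npas2 (adjusted p = 0.0064) and for no other member, where 4.92% of all genes tested differed. The log2 fold change of Npas2 was -0.01, -0.29, -0.22, -0.29 and -0.62 from the lowest to the highest dose. Arntl followed with -0.07, -0.28, -0.24, -0.33 and -0.57, but its adjusted p was 0.13. With 57 libraries, with limma or with the number in the library title as a covariate, Arntl passed too (0.044, 0.041 and 0.012).

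Per doubling of dose the exposure effect of Npas2 changed by -0.12 on the log2 scale (standard error 0.03, adjusted p = 0.0009) and that of Arntl by -0.10 (standard error 0.03, adjusted p = 0.015). These 2 are lower calls, where 5.07% of all genes had one, and no member had a higher call, where 5.58% of all genes did. By unadjusted p under 0.05, edgeR had 3 members higher, and DESeq2 and limma called 0 higher. Dbp was at 0.25 per doubling (adjusted p = 0.11), and it was called higher with the title number as a covariate (0.23, adjusted p = 0.042). Nr1d1 was at 0.16 (0.58). Dose and run differ together, and their parts cannot be told apart.

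The exposed groups were also compared with each other. Arntl (adjusted p = 0.041), Npas2 (0.00016) and Dbp (0.022) differed among the 5 exposed groups, 3 of 10 members, where 29.2% of all genes did, so the members' share was near that of all genes. Mean Npas2 was 71.15, 60.1, 62.9, 61.3 and 48.98 CPM from the lowest to the highest dose, and mean Dbp was 9.55, 15.5, 13.85, 11.4 and 22.6 CPM. Npas2 was called in each fit without 1 library. Dbp lost its call without exposed replicate 5 (0.084) or 6 (0.12) of 180 mg/m3. Arntl lost its call in 9 of the fits that leave out 1 library: at 180 mg/m3 replicates 5 and 6, at 45 mg/m3 replicates 1 and 3, at 22.5 mg/m3 replicate 6 and at 11.25 mg/m3 replicates 1, 3, 4 and 5, with adjusted p from 0.052 to 0.15.

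Air groups were compared between runs because the hour of sampling is not given. No member was called different among the 5 air groups, where 7.11% of all genes tested were. At an unadjusted p under 0.05 edgeR gave 2 members, Nr1d1 (adjusted p = 0.12) and Nr1d2 (0.14), DESeq2 called 0, and limma called 1, Cry1 (adjusted p = 0.030). With the steps of the library titles' numbers as a block in edgeR, Nr1d1 was called (adjusted p = 0.040). Without the 3 air rats of the 45 mg/m3 run no member was called either, with 2 members at an unadjusted p under 0.05 in edgeR.

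Group means of the activators in air were close. Mean Arntl in air was 58.2, 59.85, 63.04, 64.2 and 64.7 CPM in the runs of 11.25, 22.5, 45, 90 and 180 mg/m3, with SDs from 2.55 to 10.7, and mean Npas2 was 71.4, 73.6, 73.2, 75.2 and 75.4 CPM, with SDs from 2.81 to 7.79. Nr1d1 varied more, with means of 52.6 ± 36.3 (SD, n = 6), 93.8 ± 86.9 (SD, n = 6), 29.9 ± 5.14 (SD, n = 3), 49.05 ± 19.2 (SD, n = 6) and 38.5 ± 20.7 (SD, n = 6) in the same order. The spread of Nr1d1 was thus unlike between air groups. It was largest in the air rats of the 22.5 mg/m3 run, which also had the highest mean. The air rats of the 45 mg/m3 run had the smallest spread and the lowest mean. Mean Cry1 was 28.9 ± 1.303 (SD, n = 3) in the air rats of the 45 mg/m3 run and 19.7 to 22.5 in the other air groups.

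In the 10 pairs of air groups, 0 of 100 member tests were called, and 1 with the steps of the title numbers as a block. The lowest adjusted p was 0.17, for Cry1 between the runs of 45 and 11.25 mg/m3, which limma called (0.038). At an unadjusted p under 0.05 edgeR gave 12 of the 100, and DESeq2 called 0. Of these, 5, 1 and 4 lay between the 22.5 mg/m3 run and those of 45, 90 and 180 mg/m3. The pairs of 45 with 11.25 mg/m3 and 180 with 45 mg/m3 held 1 each. From the 22.5 to the 45 mg/m3 air rats Nr1d1 was at -1.66 on the log2 scale without overlap (adjusted p = 0.79 in edgeR). Of all genes tested, 12.9%, 2.73%, 4.2% and 11% were called between the 11.25 mg/m3 run and those of 22.5, 45, 90 and 180 mg/m3. Between 22.5 mg/m3 and the runs of 45, 90 and 180 mg/m3 the shares were 0.00625%, 0.0688% and 0.0813%, between 45 mg/m3 and those of 90 and 180 mg/m3 0.0313% and 0.1%, and between 90 and 180 mg/m3 0%.

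Within groups the clock genes varied together from rat to rat. Over the 53 rats, with each group's mean removed, log2 levels of Arntl ran against those of Nr1d2 (Pearson r = -0.84, Spearman rho = -0.85), Nr1d1 (r = -0.83, rho = -0.83), Dbp (r = -0.82, rho = -0.78), Tef (r = -0.765, rho = -0.72) and Per3 (r = -0.67, rho = -0.64). They ran with those of Cry1 (r = 0.74, rho = 0.725), Npas2 (r = 0.65, rho = 0.70) and Per1 (r = 0.435, rho = 0.40). Per2 had r = -0.26 and rho = -0.17 with adjusted permutation p of 0.155 and 0.28. For the other 8 genes the two-sided permutation p of r, adjusted over the 9 relations, lay between 2.25e-05 and 0.00601, where 1e-05 is the smallest unadjusted p that 100000 permutations can give. Without the 2 libraries farthest from the median of Arntl, exposed replicate 5 at 180 mg/m3 and air replicate 6 at 22.5 mg/m3, r was -0.83 for Nr1d2, -0.805 for Nr1d1, -0.785 for Dbp and 0.70 for Cry1.

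Air rats and exposed rats each showed the opposition, less evenly for Dbp in air rats. In air rats r of Arntl was -0.82 with Nr1d2, -0.81 with Nr1d1 and -0.76 with Dbp, and in exposed rats it was -0.88, -0.89 and -0.87. Within the 6 groups that kept 6 rats, r with Nr1d1 ranged from -0.95 to -0.56 and with Nr1d2 from -0.93 to -0.51, negative in 6 of 6. Dbp was less even, from -0.955 to 0.716 and negative in 4 of 6 groups, and positive in the air groups of the 90 and 180 mg/m3 runs. Over the 27 air rats with run means kept, rho of Arntl with Dbp was -0.26, beside r = -0.68. The sign also differed between groups for Tef (-0.90 to 0.64, negative in 5 of 6) and Npas2 (-0.25 to 0.795, negative in 1). It did so for Per1 (-0.63 to 0.90, negative in 2) and Per2 (-0.76 to 0.605, negative in 3), while Per3 was negative in each. Cry1 ranged from 0.645 to 0.975 and was positive in each. These are counts from the same libraries, so the relations share depth and scaling, and the plot of opposed genes shows the rats.

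**Figure D3:**
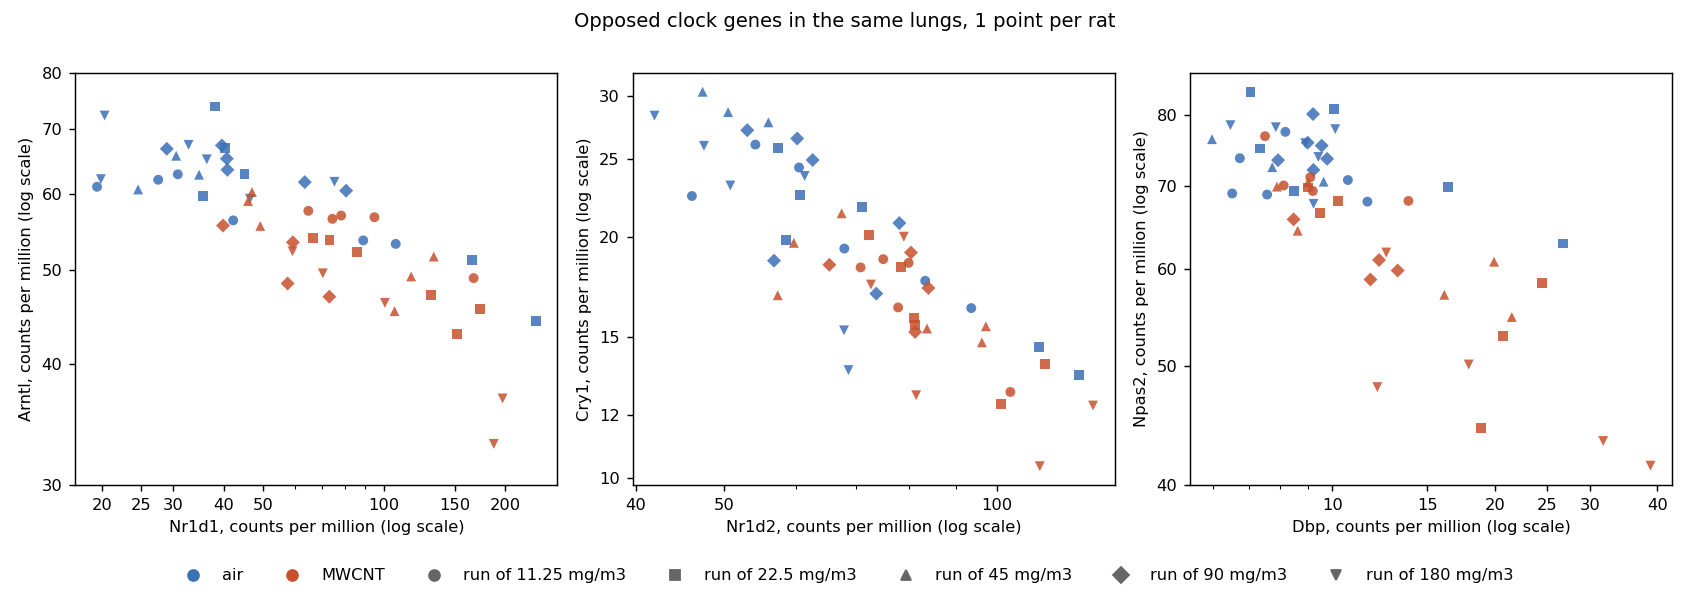
Each point is 1 rat, placed by its level of 2 clock genes (CPM, both axes logarithmic): Arntl against Nr1d1, Cry1 against Nr1d2 and Npas2 against Dbp. Colour gives air or MWCNT and the marker the run. Over all rats together the level on the vertical axis tends to be lower at a higher level on the horizontal axis, with exceptions within groups. Of these pairs only Arntl with Nr1d1 was tested within groups.

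The library titles carry a running number, and the labels do not say what it marks. In each group the 6 numbers are consecutive, and in every run the exposed rats' numbers begin 12 above those of the air rats, so between air and exposed rats of a run the number and the exposure cannot be told apart. Within groups the number can be read, as steps above the lowest number of the group. This reading was added after the levels had been seen. A fit with the 10 group means and this step as a covariate called 6 of the 10 clock genes, 4 higher, where 0.731% of all genes were called higher, and 2 lower, where 0.838% were.

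Nr1d1 had the smallest p of all 15995 genes in that fit, with a log2 change of 0.32 per step (standard error 0.04, adjusted p = 5.7e-06). Per step, Nr1d2 rose by 0.13 (adjusted p = 2.8e-05), Dbp by 0.20 (0.00023) and Tef by 0.06 (0.00031), while Cry1 fell by 0.12 (1.6e-05) and Arntl fell by 0.06 (0.00087). Npas2 was at -0.03 (0.092), Per3 at 0.10 (0.086), Per1 at -0.11 (0.62) and Per2 at 0.01 (0.92). By group, the fitted line of Nr1d2 and Tef rose in 10 of 10 groups and that of Nr1d1 in 9, and Arntl fell in 10 and Cry1 in 9. None of these 6 genes lost its call when 1 library was left out.

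In air rats alone 3 members were called, Nr1d1 at 0.36 per step (adjusted p = 0.0063), Nr1d2 at 0.13 (0.011) and Cry1 at -0.13 (0.0037). Arntl was at -0.05 (0.099), Dbp at 0.13 (0.22) and Tef at 0.05 (0.14) there. Exposed rats alone gave 7, with Dbp at 0.27 (0.0064), Tef at 0.08 (0.0084) and Per1 at -0.38 (0.039) among them, and the difference between air and exposed rats was not tested. The shares of all genes called in air rats alone and in exposed rats alone were not counted, so these numbers of members have no background beside them. Of 18 other clock and clock output genes tested, Por, a reductase gene whose rhythm follows the clock, rose by 0.05 per step (5.7e-06) and Klf10, a transcription factor gene under clock control, rose by 0.09 (0.012).

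With the step as a covariate, Cry1 at 45 mg/m3 was at -0.62 (adjusted p = 0.0024), and it was the 1 member called there. The 180 mg/m3 run had 7 members called, and Arntl was at -0.55 (adjusted p = 1.5e-07), Nr1d1 at 1.45 (0.00035) and Dbp at 1.16 (0.00019). At 90 mg/m3 Cry1 at -0.46 (0.012) and Nr1d2 at 0.41 (0.047) were called besides the 2 activators, and with the step as a block they were at -0.50 (0.0018) and 0.43 (0.037). Leaving out the labelled outliers had taken the 2 highest numbers from the exposed rats at 90 mg/m3, 3 numbers from the air rats at 45 mg/m3 and the lowest number from the exposed rats at 180 mg/m3. The plot of levels by title number shows 4 of the genes.

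**Figure D4:**
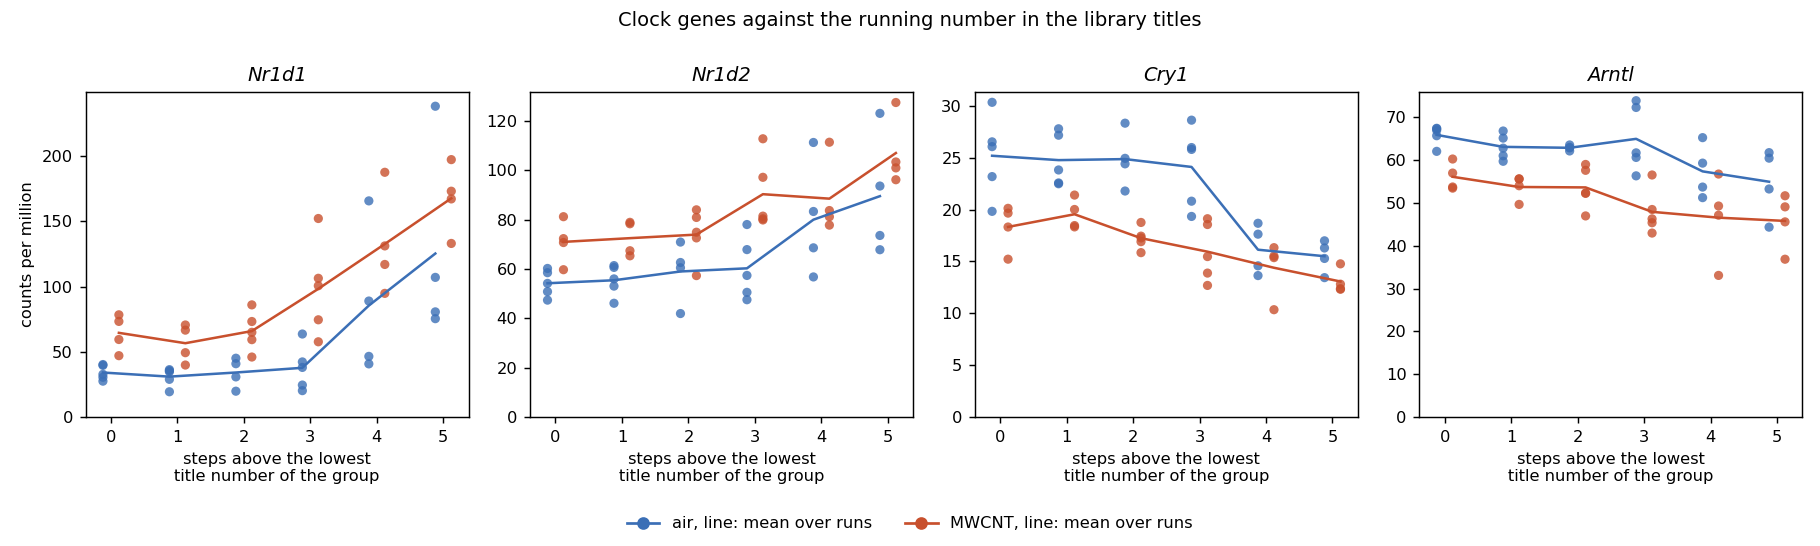
Level (CPM, vertical axis from 0) of Nr1d1, Nr1d2, Cry1 and Arntl in every analysed rat against the steps of its title number above the lowest of its group (horizontal axis, 0 to 5), with air rats in blue, exposed rats in red and lines through the means over runs. Runs without a library at a step do not enter its mean. Nr1d1 and Nr1d2 are higher, and Cry1 and Arntl lower, at higher steps.

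Among 21 further clock and clock output genes 18 were tested, and at 180 mg/m3 these had 2 higher and 2 lower calls. Both shares were near the 12% and 10.9% of all genes given above. Bhlhe40, which encodes the repressor DEC1, rose by 0.42 on the log2 scale (adjusted p = 0.00071), and Nampt, the enzyme gene of NAD synthesis under clock control, rose by 0.21 (0.013). Ciart, a repressor gene of the loop, fell by 0.38 (0.010), and Rorb, a receptor gene that acts on the same element as the REV-ERBs, fell by 0.76 (0.034). The level of Rorb was low, with means of 0.958 CPM in exposed and 1.63 in air rats, and its groups overlapped. Clock itself, the usual partner of BMAL1, was not called in any run. Arntl2 was below the filter, and Hlf and Fbxl21 were not analysed here.

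Lower doses had fewer calls among these genes, as they had over all genes. Csnk1e, a kinase gene whose product tags PER proteins, fell by 0.16 at 90 mg/m3 (adjusted p = 0.016) and by 0.18 at 45 mg/m3 (0.021). It was 1 of 18 called in each of these runs, where 4.28% and 2.09% of all genes were called lower. At 22.5 and 11.25 mg/m3 edgeR called 0 of the 18, with 3 and 1 at an unadjusted p under 0.05. Among the 5 air groups Clock (adjusted p = 0.022), Rora (0.012) and Gsk3b (0.00069) differed, 3 of 18, where 7.11% of all genes did, and whether this share differs from that of the members was not tested.

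Genes with levels most like those of Arntl and Dbp were listed over the 27 air libraries, by Pearson r of log2 CPM among 12881 genes that averaged 1 CPM or more. Nearest to Arntl were Ppp2r5b (r = 0.71), Pskh1 (0.69), Cry1 (0.68), Cish (0.68) and Stip1 (0.645). Farthest from it were Nr1d2 (-0.79), Nr1d1 (-0.76), Tef (-0.71), Dbp (-0.68) and Per3 (-0.66), so the 5 most opposed of all genes listed were 5 members. Nearest to Dbp were Tef (0.72), Acr (0.68), Myrip (0.68), Nr1d2 (0.67) and Nr1d1 (0.65), and farthest were Arntl (-0.68), Ptpro (-0.67), Ube2q2 (-0.64), Top2a (-0.62) and Mmp15 (-0.61). With run means removed, r of Arntl with Cry1 was 0.75 in air rats and 0.76 in exposed rats, with Cish 0.675 and 0.44, and r of Dbp with Tef was 0.74 and 0.89. Other listed genes did not keep their likeness in exposed rats. In the same order, r of Arntl was 0.76 and 0.32 with Ppp2r5b and 0.685 and -0.18 with Pskh1. For Dbp it was 0.72 and -0.11 with Acr, -0.63 and -0.11 with Ptpro, and -0.57 and -0.11 with Top2a. These are descriptions over libraries that share runs, and by Spearman's rho 2, 1, 0 and 0 of the 5 genes stayed in the 4 lists in the order given.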

How the data were processed

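Gene-level RNA was measured in 60 rat lung libraries, made with a stranded mRNA kit and 12 PCR cycles per the labels' protocols. The authors deposited 1 table of raw read counts per gene. The submitters' processing notes name bcl2fastq 2.19, Trimmomatic 0.35, HISAT2 2.1.0, Cufflinks, SAMtools 1.8 and HTSeq 0.11.2, and neither the genome build nor the strand setting is given in the sources used here. PCR reads carry no molecular identifiers, so counts are not independent molecules.

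From these counts the 53 libraries not labelled outlier were scaled by trimmed mean of M values, and genes under edgeR's default filter with a minimum count of 10 were removed, which left 15995 of 30045 genes and 99.93% of the counts. All comparisons came from 1 fit of 10 run-by-treatment groups in edgeR 4.0.16 (R 4.3.3), with the robust quasi-likelihood F-test, two-sided, and Benjamini-Hochberg adjustment over all genes of a comparison. Standard errors are the log2 fold change over the root of F. Likeness used log2 CPM with a prior count of 2. No pair of libraries of a group agreed within sampling noise, with a chi-square per degree of freedom of at least 2.60. The fit was tested on simulated data for the 180 mg/m3 comparison alone. It called 34 and 37 of 50 genes changed 0.667-fold and 1.5-fold, and 39 and 44 of 50 changed 0.5-fold and 2-fold. In that comparison 7 unchanged genes were called, and the comparisons of the other runs were not tested in this way.

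The named genes are the 10 members, the further clock genes called at 180 mg/m3 or among the air groups, and the 5 highest and lowest in likeness to Arntl and Dbp. Csnk1e, Por and Klf10, and the further clock genes' values at lower doses, were named after their values were seen. A few clock-related items are not reported here. The members and lists were chosen with earlier results of these data known. Alternatives covered DESeq2 1.42.0, limma 3.58.1 (voom with quality weights), DESeq2 size factors, other filters, other sets of libraries and each library left out in turn, and the title number as a covariate or a block was added after the levels had been seen.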

Additional observations from a re-analysis of the deposited data

Results flagged for a closer look

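Within groups of 4 to 6 rats, 4 values stood apart from the rest of their group by Dixon's test at the 95% level, out of 90 gene-and-group tests, where chance gives about 1 in 20. At 11.25 mg/m3 exposed replicate 6 had the lowest Arntl, 49.1 CPM where the next was 56.5, the highest Nr1d2, 103 CPM where the next was 79.9, and the highest Dbp, 13.8 CPM where the next was 9.20. In the exposed rats at 45 mg/m3, replicate 4 had the highest Per2, 33.8 CPM where the next was 27.4. The exposure effect on Npas2 differed among the 5 runs, with an adjusted p of 0.0064 in edgeR's quasi-likelihood test.

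Libraries that the labels mark as outliers were kept out of every comparison, and 3 of them held levels of clock genes above all 27 analysed air libraries when all 60 were scaled together. These are air replicate 5 of the 45 mg/m3 run and exposed replicates 5 and 6 of the 90 mg/m3 run, the same 3 that held 18.6% to 21.8% of their counts in liver genes. Arntl was at 121, 104 and 108.8 CPM in them, in that order, where the highest analysed air library had 69.8. Npas2 was at 118 and 85.3 CPM in the former pair, above 78.4. Cry1 was at 60.45, 41.01 and 45.5 CPM, above 28.6, and Per2 at 41.5, 63.2 and 44.3 CPM, above 30.9.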

How the results depend on the processing

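Of the 7 members called at 180 mg/m3, the settings tried left 5 to 7 called, 5 with all 60 libraries and 6 to 7 with 1 library left out. The 11.25 mg/m3 run had 0 members called throughout. At 90 mg/m3 the 2 calls became 4 with the title number as a covariate, where 1851 of all genes were called, and 0 to 2 with 1 library left out. With all 60 libraries both activators lost their call there, Arntl at 0.13 and Npas2 at -0.14 (adjusted p = 0.53 and 0.35 in edgeR). The 1 call in that setting was another gene, Per2, at 0.49 (adjusted p = 0.0365), where 5122 of all genes were called. The 1 call at 45 mg/m3 became 2 with 57 libraries, in DESeq2 and with each run alone, and 0 to 2 with 1 library left out. With all air rats pooled as the control Cry1 lost its call there, and the 2 calls were Arntl and Npas2, where 2710 of all genes were called. At 22.5 mg/m3 the 2 calls became 0 with all 60 libraries or each run alone, 1 with no filter or with limma voom, and 0 to 2 with 1 library left out. With the pooled air control they became 6, where 3491 of all genes were called. The air groups went from 0 to 1 call with limma voom, as did the pairs of air groups, and no library left out changed either. The exposed groups went from 3 to 5 with all 60 libraries, and 1 to 3 with 1 left out. The interaction went from 1 to 2 with 57 libraries, limma voom or the title number. The slope went from 2 to 0 with all 60 libraries and to 3 with the title number. The title number's 6 calls became 3 in air rats alone and 6 to 7 with 1 library left out. Over all genes, 180 mg/m3 had 1921 higher and 1739 lower calls, and with all 60 libraries 614 in either direction. The cause of these changes was not tested.

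No label ties a rat of one group to a rat of another. With the step of the title number as a replicate block, added after the results had been seen, 90 mg/m3 had 4 members called, the air groups 1, their pairs 1, the interaction 2 and the slope 3, and the other comparisons of groups had the counts given above without it. At 90 mg/m3 the block setting called 1768 of all genes. Depth limits Dbp most among the members, with 66 counts in its lowest library and a median of 106, against a median of 191 for Per3, the next lowest. The labels give neither hour of killing nor cage.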
